A study of Mus musculus with 24 samples.

Results

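Expression of 10 immediate-early genes (Fos, Fosb, Jun, Junb, Jund, Atf3, Egr1, Egr2, Egr3 and Ier2) was compared across myeloid cells sorted from mouse colon lamina propria (LP) and colon tumours. The genes were taken by name, as the table entries whose Ensembl identifier carries one of these mouse symbols, and all 10 were found among the 17301 genes measured. The RNA-seq libraries numbered 24, with 3 for each of 4 populations in each tissue. F4/80hi macrophages were sorted as MHCIIhi or MHCIIlow cells, monocytes as Ly6Chi MHCII- cells, and neutrophils as CD11b+ Ly6Ghi F4/80- cells. LP cells came from wild-type C57BL/6J mice and tumour cells from Apc Min/+ mice on the same C57BL/6J background. Apc Min/+ mice carry a germline mutation of the Apc tumour suppressor, so that the tumour myeloid cells carried the mutation too and genotype and tissue cannot be told apart. Both sexes were used, and each library was made from the pooled tissue of 13 to 15 mice. According to the methods of the study, both genotypes drank dextran sodium sulphate for 1 week from an age of 6 to 8 weeks. This agent injures the colon epithelium, and the wild-type mice had a lower concentration. All were killed 4 weeks later at 3 to 4 months, whereas the sample labels call the LP healthy. The methods give LP 1 h in EDTA at body temperature and then 1.5 h in collagenase D, and tumours 1 h in collagenase D with DNase I, while the labels give the LP protocol for every sample. Within a tissue the populations shared the digestion protocol, though not always the same pools, but between tissues the digestion and the tissue cannot be told apart. Libraries are named by the roman numeral the labels give as the donor, which is a pool of mice. The numerals of LP and tumour mark different mice.

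Immediate-early genes are transcribed within minutes of a stimulus from factors already present in the cell, mainly downstream of the MAP kinases, serum response factor and CREB, and their RNAs are short-lived. Fos and Jun family proteins pair to form AP-1, Egr proteins are zinc finger factors that bind GC-rich DNA, and Atf3 is a stress-induced partner of the same bZIP class. In myeloid cells they respond to adhesion, cytokines and microbial products, and warm enzymatic digestion of tissue is known to induce them together with heat shock genes.

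Promoter sequence was read to show the elements through which such genes are known to be induced. It is given for members in the RefSeq promoter table whose RNA differed between tissues or populations. Egr1 and Ier2 also differed, but they and Egr3 are absent from that table and were not searched. Windows of 120 bases ending at the base before the RefSeq transcription start (GRCm38.p6) are given 5′ to 3′ on the strand of the gene, with matches to the motifs searched in capitals. The motifs were TGACG or CGTCA (the core of the cyclic AMP response element bound by CREB and ATF proteins), TGACATCA (the Jun promoter variant of the AP-1 site), TGACTCA (the classical AP-1 site), the CArG box (bound by serum response factor), GCGGGGGCG (the Egr site), all on both strands, and TATAAA on the gene strand only. Fos lies at chr12:85473770-85473889 (+), Fosb at chr7:19310046-19310165 (-), Jun at chr4:95052223-95052342 (-), Junb at chr8:84978749-84978868 (-), Egr2 at chr10:67537749-67537868 (+) and Atf3 at chr1:191183334-191183453 (-).
Fos: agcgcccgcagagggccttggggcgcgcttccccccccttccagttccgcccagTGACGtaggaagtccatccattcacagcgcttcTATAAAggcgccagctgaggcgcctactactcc
Fosb: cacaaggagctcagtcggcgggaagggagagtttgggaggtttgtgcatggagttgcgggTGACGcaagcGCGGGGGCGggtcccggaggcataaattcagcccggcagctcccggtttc
Jun: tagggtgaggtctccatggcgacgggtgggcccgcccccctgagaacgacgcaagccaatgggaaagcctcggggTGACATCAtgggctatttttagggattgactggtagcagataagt
Junb: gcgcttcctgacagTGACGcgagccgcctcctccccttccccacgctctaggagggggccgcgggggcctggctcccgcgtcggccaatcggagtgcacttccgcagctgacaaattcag
Egr2: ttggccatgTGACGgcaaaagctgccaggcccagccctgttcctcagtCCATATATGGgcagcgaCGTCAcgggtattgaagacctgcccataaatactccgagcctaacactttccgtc
Atf3: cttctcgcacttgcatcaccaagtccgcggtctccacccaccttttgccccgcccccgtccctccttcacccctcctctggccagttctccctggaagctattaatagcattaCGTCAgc

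Of the 7 members in the RefSeq promoter table, which include Jund, 5 held TGACG on either strand, against 11.66% of 32851 windows of the same length. The matches began at −66 in Fos, −60 in Fosb, −106 in Junb, −111 and −55 in Egr2 and −7 in Atf3, counted from the transcription start. Of the 7 searched, which leave out Egr1, Egr2 alone held the CArG box (0.75% of windows), at −72, between its 2 TGACG matches. Jun alone held TGACATCA (2.1% of windows), at −45. Fosb alone held the Egr site (1.84% of windows), at −50, and Fos alone held TATAAA (4.19% of windows), at −33. None of the 7 held TGACTCA, found in 2.3% of windows, and Jund held no motif searched. No matches overlapped. A match describes the letters in the window, and binding was not measured.

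Depth was 12.8 to 41.7 M reads on genes per library (median 26.4 M). Values are log2 RPKM, the log2 of reads divided by gene length and library size, and differences between groups are differences of group means on that scale. The library size built into the deposited values was 0.466 to 0.483 of the summed reads for neutrophils from tumours, 0.630 to 0.682 for those from LP and 0.981 to 1.51 for the other 18 libraries, so this scaling places neutrophil values higher than a division by total reads does. With sizes set to the summed reads, the median tumour minus LP difference of all genes in neutrophils moved from −0.12 to −0.59, and the median neutrophil minus monocyte difference from −0.24 to −1.07 in LP and from −0.36 to −1.49 in tumours. The share of called genes that were higher moved with it, from 40.8% to 15.9%, from 44.2% to 21.3% and from 40.0% to 15.5%. In tumour against LP it moved from 52.3% to 33.0% in monocytes and from 41.1% to 52.2% in MHCIIhi macrophages, and in MHCIIlow against MHCIIhi macrophages from 27.6% to 63.8% in LP and from an even split to 79.3% in tumours. Of the sorting markers, Adgre1, which encodes F4/80, was highest in macrophages, Ly6g reached a mean log2 RPKM of 6.01 in LP and 8.05 in tumour neutrophils and at most 0.69 in any other library, and the MHC class II gene H2-Ab1 reached 13.24 in LP MHCIIhi against 8.28 in LP MHCIIlow macrophages, and 12.58 against 10.00 in tumours. H2-Ab1 was 8.74 in LP monocytes and 8.96 in LP neutrophils, both above LP MHCIIlow macrophages. In tumours it was 7.88 in monocytes and 7.06 in neutrophils. Adgre1 read 4.80 in LP and 5.67 in tumour neutrophils, which were sorted as F4/80-. Ly6c2, for the Ly6C of the monocyte gate, separated monocytes from macrophages but not from neutrophils: it read 6.07 and 5.93 in LP and tumour monocytes, 5.66 and 6.39 in neutrophils, and below 0 in macrophages. The level of an RNA in a sorted population does not separate how many cells carry it from how much each carries, so fewer cells of a type and less RNA per cell cannot be told apart.

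**Figure D1:**
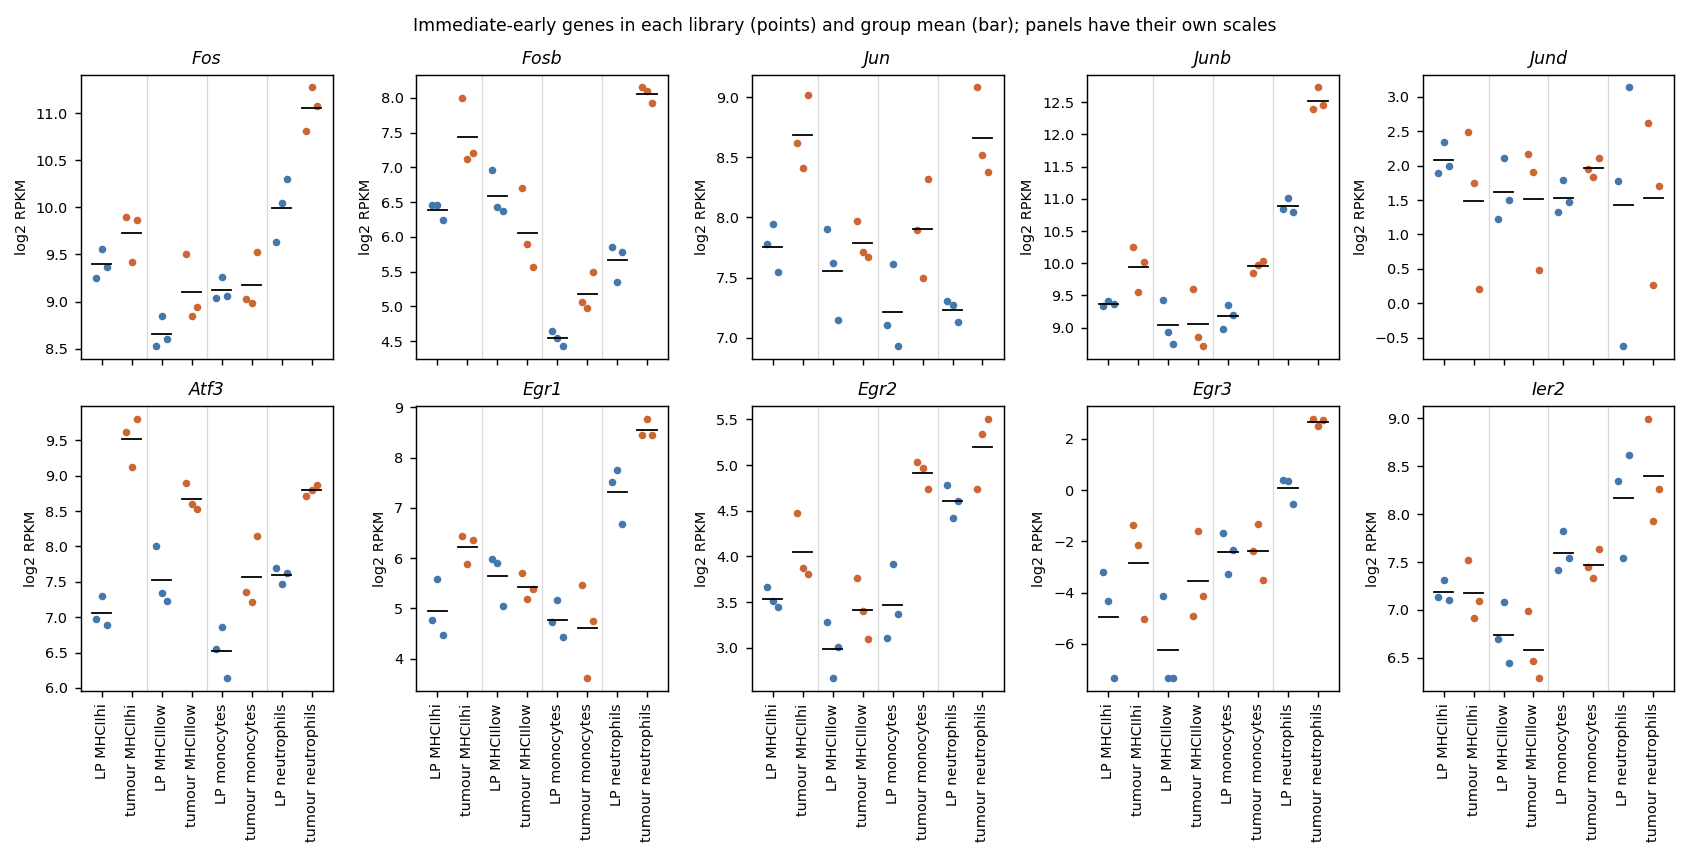
Log2 RPKM (vertical axis, own scale in each panel) of the 10 immediate-early genes in the 24 libraries (points, 3 per group) with the group mean (bar), LP in blue and tumour in orange. In this deposited scaling the tumour neutrophils hold the highest mean for Fos, Fosb, Junb, Egr1, Egr2, Egr3 and Ier2, and tumour MHCIIhi macrophages hold it for Jun and Atf3. With sizes set to the summed reads, Egr2 and Ier2 were lower in tumour neutrophils than in tumour monocytes. Ranks against macrophages were not computed in that scaling and may change too. The Jund points spread widely within groups.

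On the per-length RPKM scale, Junb and Fos were the most abundant members and Egr3 the least. Levels of different genes depend on the lengths in the deposited values. These differ from GENCODE M21 for Junb (1840 against 2301 bases), Fosb (3751 against 6243) and Egr3 (1416 against 4406), as for Jund below. Junb had a mean log2 RPKM of 12.53 ± 0.18 (SD, n = 3) in tumour neutrophils and 9.03 ± 0.35 in LP MHCIIlow macrophages, its lowest group. Fos ranged from 11.05 ± 0.23 in tumour neutrophils to 8.66 ± 0.17 in LP MHCIIlow macrophages. In the deposited scaling, tumour neutrophils were the highest group for 7 members and tumour MHCIIhi macrophages for Jun and Atf3. With sizes set to the summed reads, Egr2 (−0.85, called) and Ier2 (−0.21, not called) were lower in tumour neutrophils than in tumour monocytes. Library sizes were 1.18 to 1.35 of the summed reads in tumour MHCIIhi macrophages. Summed reads therefore raise their values while lowering those of neutrophils. Neutrophils were not tested against macrophages, so other members, Fos and Fosb among them, may lose the top rank too. Neighbours in the orders of the deposited scaling mostly overlapped. For Fos, 5 of 7 neighbouring pairs of groups shared part of their range. Only tumour against LP neutrophils, at the top, and tumour against LP MHCIIlow macrophages, at the bottom, did not. A limma test of any difference among the 8 groups passed for 9 of 10 members, where 88.2% of the 12878 genes tested passed. Jund was the exception (adjusted p = 0.977). The Ier2 call was lost under quantile normalization (0.105) and with summed reads (0.17), and without Egr3 the count was 8 of 9. All 10 members passed the filter of a mean of at least 1 RPKM in at least 1 group, Egr3 only through the 2 neutrophil groups, so that its calls against other populations are no support for a difference.

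The first comparison set each tumour population against its LP counterpart. The number of immediate-early RNAs higher in tumours differed between populations: 4 of 10 members in MHCIIhi macrophages, only Atf3 in MHCIIlow macrophages, 3 in monocytes and 6 in neutrophils passed limma at a Benjamini-Hochberg adjusted p under 0.05, all in the direction of the tumour and none lower. Of all genes tested, 19.5%, 23.3%, 9.29% and 32.2% were called in the same comparisons, with 8.01%, 11.5%, 4.86% and 13.1% called higher and 11.5%, 11.8%, 4.43% and 19% called lower. The MHCIIlow count of 1 in 10 was close to the 11.5% of all genes, and the others lay above their background. At an unadjusted p under 0.05, 6, 3, 5 and 8 members passed, where 30.9%, 33.8%, 22.4% and 41.6% of all genes did, and Fosb in MHCIIlow macrophages was the only one of these that was lower. The median difference of the members was 0.75, 0.12, 0.54 and 1.22, beside 0.00, 0.06, 0.00 and −0.12 for all genes. With Egr3, which had at most 3 reads in each LP MHCIIlow library, set to the bound those reads allow, the MHCIIlow median was −0.04, and without Egr3 the 4 medians were 0.57, 0.02, 0.64 and 1.19. All 3 tumour libraries lay above all 3 LP libraries for 6 members in MHCIIhi macrophages, 2 in MHCIIlow macrophages, 5 in monocytes and 7 in neutrophils, against 20.9%, 22.7%, 16.2% and 18.3% of all genes, and for no member did they all lie below, as they did for 22.1%, 19.3%, 15.1% and 21.8% of all genes. Averaged over the 4 populations, 8 of 10 members, or 7 of 9 without Egr3, were higher in tumours, where 42.4% of genes were called, 19.4% higher and 23% lower, with Ier2 and Jund the exceptions.

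**Figure D2:**
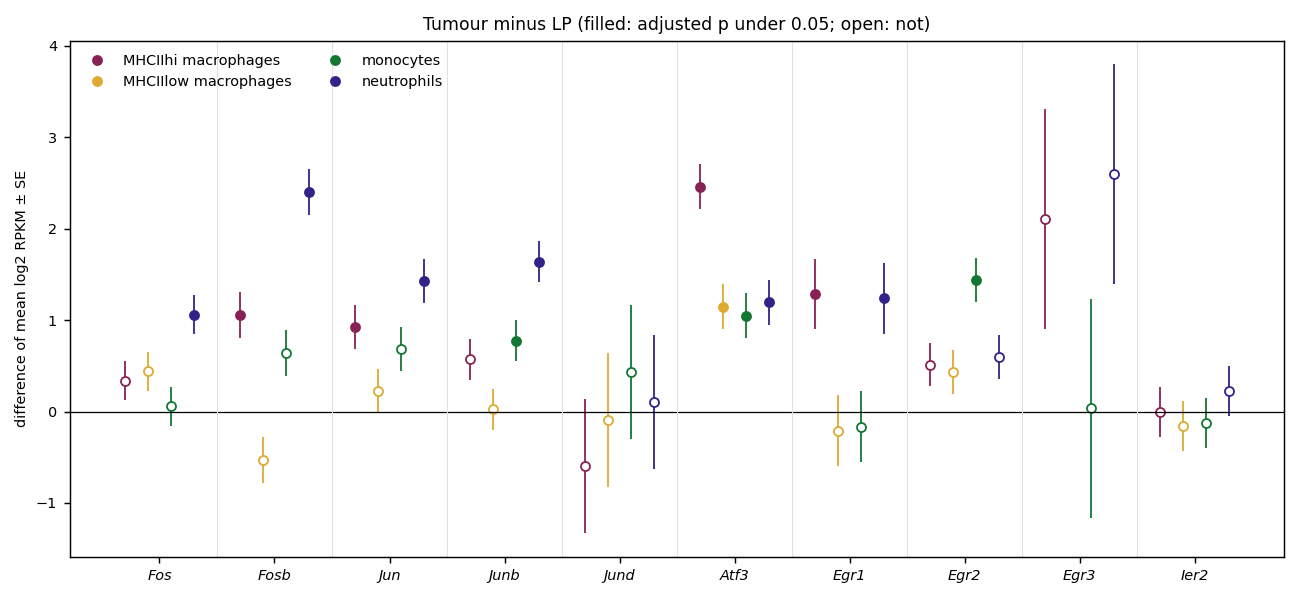
Tumour minus LP difference in mean log2 RPKM (vertical axis, ± SE) for each member (horizontal axis) in the 4 populations (colours). Filled points have an adjusted p under 0.05. Atf3 is filled in all 4 populations, with its largest difference, 2.46, in MHCIIhi macrophages, Fosb reaches 2.40 in neutrophils, and Egr3 in MHCIIlow macrophages is not drawn because its LP libraries had at most 3 reads.

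Atf3, a bZIP factor induced by cell stress that can act as a repressor, was higher in tumours in all 4 populations. In MHCIIhi macrophages it read 6.97, 7.30 and 6.89 log2 RPKM in LP (libraries III, IV and V) and 9.61, 9.13 and 9.80 in tumours (I, V and VII), a difference of 2.46 ± 0.24 (SE) or 5.5-fold (limma, adjusted p = 5.84e-07). In MHCIIlow macrophages it read 8.01, 7.34 and 7.23 in LP (II, III and IV) and 8.89, 8.60 and 8.53 in tumours (I, V and VII), a difference of 1.15 ± 0.24 (adjusted p = 0.00168). The ranges did not overlap in either macrophage population, and LP MHCIIlow library II lay nearest to the tumour values. Without that library the difference was 1.39 (adjusted p = 0.000556). In monocytes it read 6.55, 6.87 and 6.14 in LP (III, IV and V) and 7.35, 7.21 and 8.15 in tumours (I, II and V), a difference of 1.05 ± 0.24 (adjusted p = 0.00881). The neutrophil libraries were the tightest, at 7.70, 7.47 and 7.63 in LP (III, IV and V) and 8.72, 8.80 and 8.86 in tumours (I, II and V), a difference of 1.19 ± 0.24 (adjusted p = 0.000916). The monocyte and neutrophil ranges did not overlap either. The monocyte call was lost without LP monocyte library V (adjusted p = 0.0626) or tumour monocyte library V (0.0605) and with the model fitted to the 6 monocyte libraries alone (0.108). With sizes set to the summed reads, the neutrophil difference was 0.73 (adjusted p = 0.02), still called.

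The Fos family members, which pair with Jun proteins in AP-1, differed most in neutrophils in the deposited scaling. Fosb read 5.86, 5.34 and 5.79 in LP neutrophils and 8.15, 8.11 and 7.93 in tumour neutrophils, 2.40 ± 0.25 or 5.28-fold higher (limma, adjusted p = 9.74e-07). Fos read 9.63, 10.04 and 10.30 in LP and 10.81, 11.27 and 11.08 in tumours, 1.06 ± 0.21 or 2.09-fold higher (adjusted p = 0.00079). Neither gene overlapped between the tissues. Relative to the median of all genes in that comparison these differences were 2.52 and 1.18. With sizes set to the summed reads they were 1.93 and 0.59, both called, and under quantile normalization, which gives all libraries the same distribution, Fosb kept 1.80 (adjusted p = 2.48e-05) and Fos had 0.43 (0.14).

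In MHCIIhi macrophages Fosb read 6.46, 6.46 and 6.24 in LP and 8.00, 7.12 and 7.21 in tumours, 1.06 ± 0.25 higher without overlap (limma, adjusted p = 0.00518), with tumour library I the highest. In MHCIIlow macrophages Fosb did not pass, and its estimate had the opposite sign: LP gave 6.96, 6.43 and 6.38 and tumours 6.71, 5.90 and 5.57, a difference of −0.53 ± 0.25 (adjusted p = 0.147). The ranges overlapped through tumour library I, and without that library the MHCIIlow difference was −0.85 (adjusted p = 0.0144), which is lower in tumours. In monocytes Fosb read 4.65, 4.54 and 4.43 in LP and 5.06, 4.97 and 5.49 in tumours, 0.64 ± 0.25 apart without overlap but not called (adjusted p = 0.128). Fos did not pass in MHCIIhi macrophages (0.34, 95% interval −0.11 to 0.78), MHCIIlow macrophages (0.44, −0.0034 to 0.89) or monocytes (0.06, −0.39 to 0.50). Under quantile normalization, where its neutrophil call was lost, Fos was called higher in tumour MHCIIlow macrophages (limma, adjusted p = 0.0316).

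The tumour effect on Fosb therefore differed between populations in tests of the difference itself. It was lower in MHCIIlow than in MHCIIhi macrophages by −1.59 ± 0.36 (limma, adjusted p = 0.0302), in a comparison where 1 of 10 members and 1.46% of all genes were called, 0.326% in this direction. This call was lost without any 1 of LP MHCIIhi libraries III (0.0585), IV (0.0633) and V (0.082), LP MHCIIlow library II (0.0759), tumour MHCIIhi library I (0.0699) or tumour MHCIIlow libraries V (0.0868) and VII (0.0692). It was greater in neutrophils than in monocytes by 1.76 ± 0.36 (adjusted p = 0.00425), where 2 of 10 members, both upwards, and 9.11% of genes were called (3.61% upwards and 5.5% downwards). That Fosb call held when any 1 library was left out and was lost under quantile normalization (adjusted p = 0.0555). The second member was Fos, whose effect was greater in neutrophils by 1.00 ± 0.30 (adjusted p = 0.0421). The Fos call was lost without any of the LP monocyte libraries III, IV and V, LP neutrophil libraries III and IV, tumour monocyte libraries I and II or tumour neutrophil libraries II and V, at adjusted p of 0.0544 to 0.11, and with the donor as a fixed replicate block (0.0649), summed reads (0.69, adjusted p = 0.135), quantile normalization (0.223), array weights (0.0565) or only the libraries compared (0.075).

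Of the Jun family, Jun and Junb were higher in tumour neutrophils. Junb, which can substitute for Jun in AP-1 and often opposes it, read 10.85, 11.01 and 10.80 in LP neutrophils and 12.39, 12.73 and 12.46 in tumour neutrophils, 1.64 ± 0.22 or 3.12-fold higher (limma, adjusted p = 1.65e-05). Jun, the main activating partner of Fos, read 7.30, 7.27 and 7.13 in LP and 9.08, 8.52 and 8.38 in tumours, 1.43 ± 0.24 or 2.69-fold higher (adjusted p = 0.000141). Neither gene overlapped, and with sizes set to the summed reads Junb kept 1.17 and Jun 0.96, both called. In MHCIIhi macrophages Jun read 7.78, 7.95 and 7.55 in LP and 8.62, 8.41 and 9.02 in tumours, 0.93 ± 0.24 higher without overlap (adjusted p = 0.00876), a call lost without tumour MHCIIhi library VII (0.0564). Junb there read 9.34, 9.41 and 9.36 in LP and 10.24, 9.56 and 10.01 in tumours, also without overlap, but was not called (0.57 ± 0.22, adjusted p = 0.0823). It was called without tumour library V (0.76, adjusted p = 0.0316), with voom on the reads and with sizes set to the summed reads (0.69, adjusted p = 0.0224).

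In monocytes Junb read 8.98, 9.35 and 9.20 in LP and 9.85, 9.97 and 10.03 in tumours, 0.77 ± 0.22 higher without overlap (limma, adjusted p = 0.0334). This call rested on each of 5 libraries: it was lost without LP monocyte library III (0.131) or V (0.0838) or tumour monocyte library I (0.0647), II (0.0856) or V (0.0931), and also under quantile normalization (0.176) and with summed reads (0.0653). Jun in monocytes differed by 0.69 ± 0.24 with overlapping ranges (adjusted p = 0.0794), and was called without LP monocyte library IV (0.0364) or tumour monocyte library II (0.0408). In MHCIIlow macrophages the differences were 0.23 (95% interval −0.27 to 0.72) for Jun and 0.02 (−0.44 to 0.49) for Junb, and neither passed. Between 7.28% and 7.52% of the exon bases of Jun and Junb also lie in a gene on the other strand (Junos and Prdx2), and reads on those bases could not be assigned by strand here.

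Jund, the Jun family member that is expressed constitutively in most cells, was too variable in these libraries to compare. It had 25 to 696 reads, and LP neutrophils alone read 1.77, −0.62 and 3.14 log2 RPKM. Its mean tumour minus LP difference over the 4 populations was −0.04 (95% interval −0.80 to 0.73). In the annotation, 52.6% of its exon bases are shared with the antisense gene Gm11175, and its length in the deposited values (2878 bases) exceeds the 1668 bases of GENCODE M21, so its values are uncertain.

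The Egr factors differed in distinct populations. Egr1, a fast-responding target of the ERK pathway, read 7.51, 7.75 and 6.67 in LP neutrophils and 8.44, 8.76 and 8.44 in tumour neutrophils, 1.24 ± 0.39 or 2.36-fold higher without overlap (limma, adjusted p = 0.0184). LP library V was the low value, and without it the call was lost (0.103), as it was without tumour neutrophil library II (0.0606), under quantile normalization (0.156), with array weights (0.162) and with summed reads (0.77, adjusted p = 0.108). In MHCIIhi macrophages Egr1 read 4.78, 5.59 and 4.47 in LP and 6.45, 5.88 and 6.36 in tumours, 1.28 ± 0.39 higher without overlap (adjusted p = 0.0225). That call was lost without LP MHCIIhi library III (0.0766) or V (0.114) or tumour MHCIIhi library I (0.0769) or VII (0.0734). In MHCIIlow macrophages and monocytes Egr1 did not pass, with differences of −0.21 (95% interval −1.01 to 0.60) and −0.16 (−0.97 to 0.64). The mean of the 4 populations was 0.54 ± 0.19 (adjusted p = 0.0301). That call was lost without LP MHCIIhi library III or V, LP MHCIIlow library IV, LP monocyte library V, LP neutrophil library V, tumour MHCIIhi library I, tumour MHCIIlow library I or tumour monocyte library I (0.0502 to 0.0606), and with quantile normalization (0.0504), array weights (0.0886) or summed reads (0.0801).

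Egr2, which in myeloid cells takes part in macrophage differentiation and whose promoter window held the CArG box, was the member with the greatest tumour effect in monocytes. It read 3.11, 3.92 and 3.37 in LP monocytes (III, IV and V) and 5.03, 4.96 and 4.73 in tumour monocytes (I, II and V), 1.44 ± 0.24 or 2.72-fold higher without overlap (limma, adjusted p = 0.000613). The effect was greater than in the mean of both macrophage populations by 0.97 ± 0.29 (adjusted p = 0.0422), the only member called of 10 where 9.19% of genes were (5.64% upwards and 3.55% downwards). That difference was lost (adjusted p of 0.0511 to 0.14) without any 1 of 14 libraries: LP MHCIIhi III, IV and V, LP MHCIIlow II and IV, LP monocytes III and V, tumour MHCIIhi V and VII, tumour MHCIIlow V and VII, and tumour monocytes I, II and V. It was also lost with the donor as a fixed replicate block (0.69, adjusted p = 0.251), with summed reads (0.74, adjusted p = 0.0778) and without the filter (0.0541). Egr2 differed by 0.51 (95% interval 0.01 to 1.01) in MHCIIhi macrophages, 0.43 (−0.07 to 0.93) in MHCIIlow macrophages and 0.59 (0.10 to 1.09) in neutrophils, and passed in none of these at the adjusted threshold. Without tumour neutrophil library I the neutrophil difference was 0.82 (adjusted p = 0.0173). Egr2 in MHCIIhi macrophages was called with summed reads (0.63, adjusted p = 0.0417).

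Egr3, a relative of Egr1 induced more slowly, was close to absent outside neutrophils. It had 44, 24 and 21 reads in LP neutrophils and 121, 65 and 72 in tumour neutrophils, which correspond to 0.39, 0.34 and −0.52 and to 2.78, 2.50 and 2.73 log2 RPKM. The neutrophil ranges did not overlap, and the difference of 2.60 ± 1.20 was not called (limma, adjusted p = 0.106), in a model whose spread is shared with the low-count populations. Fitted to the 6 neutrophil libraries alone, with a pseudocount of 1 or 0.1, or with voom on the reads, it was called. All other libraries held 0 to 20 reads, and the 3 LP MHCIIlow libraries 3, 0 and 0. The call of its mean over the 4 populations rests in part on libraries with at most 3 reads, whose fitted values depend on the prior count, and is no support for a difference. Ier2, which encodes a small nuclear protein, did not pass between tissues in any population. Its LP and tumour values overlapped in all 4 populations, and its mean difference was −0.02, with a 95% interval of −0.30 to 0.27.

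The second set of comparisons was made within a tissue, where the populations shared the digestion protocol but not every pool. LP MHCIIlow libraries came from pools II, III and IV and the other LP libraries from III, IV and V. Tumour macrophage libraries came from pools I, V and VII, and tumour monocyte and neutrophil libraries from I, II and V. Pools present on only 1 side of a comparison were digested apart from the other side. Neutrophils were higher than monocytes for 6 of 10 members in LP and 8 of 10 in tumours (7 of 9 without Egr3, which passed the filter only through neutrophils), where 54.5% and 58.1% of all genes were called with 24.1% and 23.3% called higher and 30.4% and 34.9% called lower. The comparisons share their monocytes with those of the macrophages below. Egr1 had the greatest difference of the members with reads in every library: 2.54 ± 0.39 or 5.81-fold in LP (limma, adjusted p = 1.47e-05), and 3.94 ± 0.39 or 15.4-fold in tumours (adjusted p = 4.05e-08), where the monocytes read 5.45, 3.62 and 4.75. Junb was higher in neutrophils by 1.71 ± 0.22 in LP and 2.57 ± 0.22 in tumours, and neither gene overlapped between the populations. The calls held with summed reads, at 1.71 and 2.81 for Egr1 and 0.88 and 1.44 for Junb, but under quantile normalization the LP Junb difference was 0.47 and not called (adjusted p = 0.0702).

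The size of the neutrophil differences depended on the scaling. Fosb was higher by 1.12 ± 0.25 in LP and 2.89 ± 0.25 in tumours, but with summed reads by 0.30, not called, and 1.75, called. Fos was higher by 0.87 ± 0.21 in LP and 1.87 ± 0.21 in tumours as deposited, and with summed reads its differences were 0.05, not called, and 0.74, called, while quantile normalization turned the LP difference to −0.53, called lower (adjusted p = 0.0376), and left 0.11 in tumours, not called (0.667). Atf3 was higher by 1.08 ± 0.24 and 1.22 ± 0.24, and with summed reads gave 0.25 and 0.09, neither called. The LP call of Egr2 (1.14 ± 0.24) was likewise lost with summed reads (0.31). In tumours Egr2 did not pass as deposited (0.29, 95% interval −0.21 to 0.79) and was lower in neutrophils with summed reads (−0.85). Jun (0.76 ± 0.24) and Ier2 (0.92 ± 0.27) were called higher in tumour neutrophils as deposited but had the opposite sign, uncalled, with summed reads (−0.38 and −0.21). Relative to the median of all genes, which any such rescaling leaves unchanged, the tumour differences were 2.23 for Fos, 3.25 for Fosb, 1.12 for Jun, 2.93 for Junb, 4.30 for Egr1, 1.58 for Atf3 and 1.28 for Ier2. The tumour call of Jun was lost without tumour monocyte library II (0.0751) or tumour neutrophil library I (0.0734), and that of Ier2 without tumour neutrophil library I (0.0592). Egr3 had 3 to 16 reads in tumour monocytes against 65 to 121 in tumour neutrophils.

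**Figure D3:**
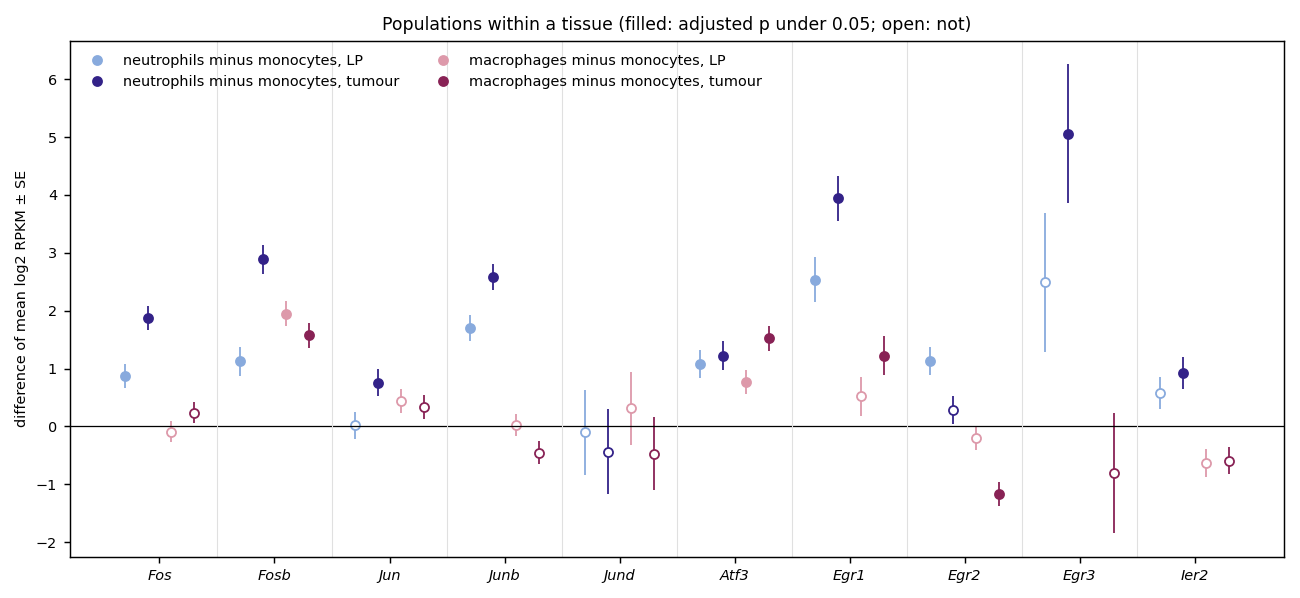
Difference in mean log2 RPKM (vertical axis, ± SE) between populations of the same tissue for each member (horizontal axis): neutrophils minus monocytes (blues) and the mean of both macrophage populations minus monocytes (reds), in LP (light) and tumours (dark). Filled points have an adjusted p under 0.05. Egr1 in neutrophils stands at 2.54 and 3.94, Fosb is higher in macrophages by 1.95 and 1.57, and Egr3 for macrophages in LP is not drawn because its LP MHCIIlow libraries had at most 3 reads.

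Macrophages, taken as the mean of MHCIIhi and MHCIIlow cells, differed from monocytes for 3 of 10 members in LP, where 29.5% of genes were called (12.5% higher and 17% lower), and 4 of 10 in tumours, where 38.3% were (16.8% higher and 21.4% lower). Fosb was higher in macrophages by 1.95 ± 0.22 or 3.86-fold in LP (limma, adjusted p = 1.27e-06) and by 1.57 ± 0.22 or 2.98-fold in tumours (adjusted p = 8.67e-06). Its LP monocyte libraries, all at or below 4.65, lay under all 6 LP macrophage libraries, the lowest of which was 6.24. Atf3 was higher by 0.77 ± 0.21 in LP (adjusted p = 0.00918), a call lost without LP monocyte library V (0.0893), and by 1.52 ± 0.21 in tumours (adjusted p = 8.37e-06). In tumours Egr1 was higher in macrophages by 1.22 ± 0.33 (adjusted p = 0.00651), a call lost without tumour monocyte library II (0.73, adjusted p = 0.0964), and Egr2 was lower by −1.17 ± 0.21 (adjusted p = 0.000132). The third LP call was Egr3, at 6 to 11 reads in monocytes and 0 to 6 in macrophages. Its fitted value depends on the prior count, and the call was lost with a pseudocount of 1 or 0.1 and without LP MHCIIhi library V (0.0612), LP MHCIIlow library III (0.0514) or IV (0.053), or LP monocyte library III (0.106) or V (0.0757). Ier2 stood at −0.63 in LP (adjusted p = 0.05004) and −0.59 in tumours (0.0542), just short of the threshold. It was called in LP under 9 of 21 alternatives, among them without LP MHCIIlow library III (0.0326). In tumours it was called under 10 of 21, among them without tumour MHCIIhi library I (0.0343) or tumour MHCIIlow library I (0.0277). The scaling mattered here too. Under quantile normalization and with summed reads, Fos and Jun were called higher in tumour macrophages, by up to 0.59 and 0.95. Jun was also called higher in LP macrophages, by up to 0.78. Junb, not called in tumours as deposited (−0.45), was called lower under 6 of 21 alternatives.

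Between the macrophage subsets 1 member was called in each tissue, and it was lower in MHCIIlow cells in both. In LP this was Fos, at 9.25, 9.55 and 9.37 in MHCIIhi and 8.53, 8.84 and 8.60 in MHCIIlow libraries without overlap, a difference of −0.74 ± 0.21 (limma, adjusted p = 0.0376), where 7.7% of genes were called and 5.57% called lower. The call was lost without LP MHCIIhi library III (0.0707), IV (0.152) or V (0.0882) or LP MHCIIlow library II (0.125) or IV (0.112), with the donor as a fixed block (−0.64, adjusted p = 0.204), under quantile normalization (0.0555) and with summed reads (0.174). In tumours it was Fosb, at 8.00, 7.12 and 7.21 in MHCIIhi and 6.71, 5.90 and 5.57 in MHCIIlow libraries, −1.39 ± 0.25 without overlap (adjusted p = 0.01), where 1.13% of genes were called and 0.567% called lower. This call was lost without tumour MHCIIhi library I (0.0548) or tumour MHCIIlow library V (0.0665) or VII (0.0509), and with the 6 libraries alone (0.324). At an unadjusted p under 0.05, 7 of 10 members passed in tumours, all lower in MHCIIlow cells, where 11.2% of all genes passed and 5.96% were lower, and Junb (−0.88 ± 0.22, adjusted p = 0.0601) and Jun (−0.90 ± 0.24, 0.0764) came next. Junb was called without tumour MHCIIhi library V (0.028) or tumour MHCIIlow library I (0.00965). In the donor block fit, Fosb, Junb and Jun were called.

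Within a group, single libraries could hold most members on the same side of the group mean. In tumour MHCIIhi library I, tumour MHCIIlow library I, LP MHCIIhi library IV and LP monocyte library IV, 9 of 10 members lay above their group mean, and in LP MHCIIhi library V and tumour MHCIIlow library VII none did. The high libraries came from tumour pool I and LP pool IV, so they are not separate pools. The remaining libraries of these pools had 3 (tumour monocytes I), 5 (tumour neutrophils I), 1 (LP MHCIIlow IV) and 5 (LP neutrophils IV) members above the mean. The mean of 9 members without Egr3, whose values at 0 reads are set by the prior count, was taken with each gene centred on its mean over the 24 libraries. It ran from 1.24 to 1.49 in tumour and −0.03 to 0.46 in LP neutrophils, from 0.17 to 0.75 in tumour and −0.46 to −0.12 in LP MHCIIhi macrophages, and from −0.65 to 0.09 in tumour and −0.71 to −0.28 in LP MHCIIlow macrophages. The LP and tumour ranges overlapped in MHCIIlow macrophages only among these. With Egr3 the tumour neutrophils ran from 1.62 to 1.86. These means are in the deposited scaling and were not computed with summed reads. That scaling lowers neutrophil and raises macrophage values, so the order of the 2 cell types may change.

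Other genes of the early response were counted from fixed lists. Of 22 such genes outside the 10, 20 were tested. They were called higher and lower in tumours in numbers of 5 and 1 in MHCIIhi macrophages, 3 and 7 in MHCIIlow macrophages, 6 and 1 in monocytes, and 12 and 1 in neutrophils, with medians of 0.03, −0.47, 0.29 and 1.06. The shares of all genes called higher and lower, as given above, were 8.01% and 11.5%, 11.5% and 11.8%, 4.86% and 4.43%, and 13.1% and 19%. Nr4a1, an orphan nuclear receptor induced in activated macrophages, was higher in MHCIIhi macrophages by 2.41 ± 0.34, in monocytes by 2.23 ± 0.34 and in neutrophils by 3.81 ± 0.34 (limma, adjusted p = 3.27e-05, 0.000274 and 1.51e-07). Its relative Nr4a3 was higher in monocytes by 3.03 ± 0.37. Btg2, an antiproliferative gene, was higher in MHCIIhi and MHCIIlow macrophages by 2.23 ± 0.31 and 1.42 ± 0.31, and Sgk1, a serum- and glucocorticoid-induced kinase, in MHCIIlow macrophages by 2.37 ± 0.28. The pseudokinase gene Trib1 was lower in MHCIIhi and MHCIIlow macrophages (−1.12 ± 0.14 and −1.82 ± 0.14), Klf4 was lower in MHCIIlow macrophages (−1.85 ± 0.35), Myc in monocytes (−2.22 ± 0.44) and Klf10 in neutrophils (−0.87 ± 0.23). The 5 higher calls in MHCIIhi macrophages became 3 without tumour library I, and the 6 in monocytes 3 without LP monocyte library III or tumour monocyte library II. The 7 lower calls in MHCIIlow macrophages became 4 without tumour library VII and 3 with the 6 libraries alone, the 3 higher calls there became 5 with summed reads or under quantile normalization, and the 12 higher calls in neutrophils became 8 under quantile normalization.

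The 12 remaining AP-1 and related bZIP genes had no call higher in tumour macrophages, and 4 were lower in MHCIIhi and 8 in MHCIIlow macrophages, where 11.5% and 11.8% of all genes were lower. By limma at an unadjusted p under 0.05, 1 was higher in MHCIIhi and 0 in MHCIIlow macrophages. Without LP MHCIIhi library IV or tumour MHCIIhi library VII, 1 was called higher and 2 lower in MHCIIhi macrophages, and without LP MHCIIhi library V, 2 were lower. The 8 became 5 with the 6 libraries alone. Fosl1, a Fos relative usually induced later, was lower by −3.40 ± 0.55 and −4.46 ± 0.55 in these (limma, adjusted p = 0.000155 and 5.47e-06) and higher in neutrophils by 2.84 ± 0.55 (adjusted p = 0.000562). Bach1, a haem-regulated repressor, was lower in MHCIIhi and MHCIIlow macrophages by −1.50 ± 0.30 and −2.69 ± 0.30. In monocytes 2 were called, both higher, Fosl2 (0.86 ± 0.21) and Maff (0.93 ± 0.29). This count was 0 without LP monocyte library III or tumour monocyte library II, and 1 without LP monocyte library V or tumour monocyte library I or V. In neutrophils 2 were higher, Fosl1 and Maff (0.91 ± 0.29), and 2 lower, Batf (−1.10 ± 0.26) and Batf2, which had 50 to 173 reads in LP and 0 to 24 in tumours. Of these, 1 was higher without LP neutrophil library IV or tumour neutrophil library II, and 1 lower without either of those or LP neutrophil library III.

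Heat shock genes, which warm digestion also raises, were set beside the members. Of 11 tested, 2 were higher and 3 lower in tumour MHCIIhi macrophages, 5 lower in MHCIIlow macrophages, 2 higher and 1 lower in monocytes and 3 higher in neutrophils. The medians were 0.10, −1.29, −0.10 and 0.69. Hspa1a, the inducible Hsp70, was higher in tumours by 1.93 ± 0.54 in MHCIIhi macrophages, 1.78 ± 0.54 in monocytes and 2.34 ± 0.54 in neutrophils, while Hsph1, which encodes an Hsp110 chaperone, was lower by −1.84 ± 0.45 in MHCIIhi and −2.35 ± 0.45 in MHCIIlow macrophages. All-gene shares are as above, and no heat shock gene was called higher in MHCIIlow macrophages or lower in neutrophils at an unadjusted p either, by limma. The 2 higher calls in monocytes fell to 0 with summed reads and without LP monocyte library III, IV or V or tumour monocyte library II or V, and to 1 without tumour monocyte library I, the lower call was lost without LP monocyte library III or V or tumour monocyte library I, the 2 higher calls in MHCIIhi macrophages fell to 1 without LP library III or tumour library VII, and the 5 lower calls in MHCIIlow macrophages to 1 with the 6 libraries alone. Between populations the lists diverged. Heat shock genes were higher in macrophages than in monocytes for 9 of 11 in LP and 7 in tumours, and lower in neutrophils than in monocytes for 7 of 11 in LP and 6 in tumours. Of all genes, 12.5% and 16.8% were higher in macrophages, and 30.4% and 34.9% lower in neutrophils. The 7 in tumour macrophages became 4 without tumour monocyte library I, and the 6 in tumour neutrophils became 2 with voom and 3 with median centring. Their mean centred level in LP MHCIIlow libraries II, III and IV spread from 1.04 to 2.96, with library II at the top. Library II was also the highest of the 3 for Atf3, Fosb, Jun, Junb, Egr1 and Egr2. For Fos (8.53) and Jund (1.22) it was the lowest of the 3, and for Ier2 (6.70) it lay between the others. The part of the digestion in the tumour differences was not tested.

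**Figure D4:**
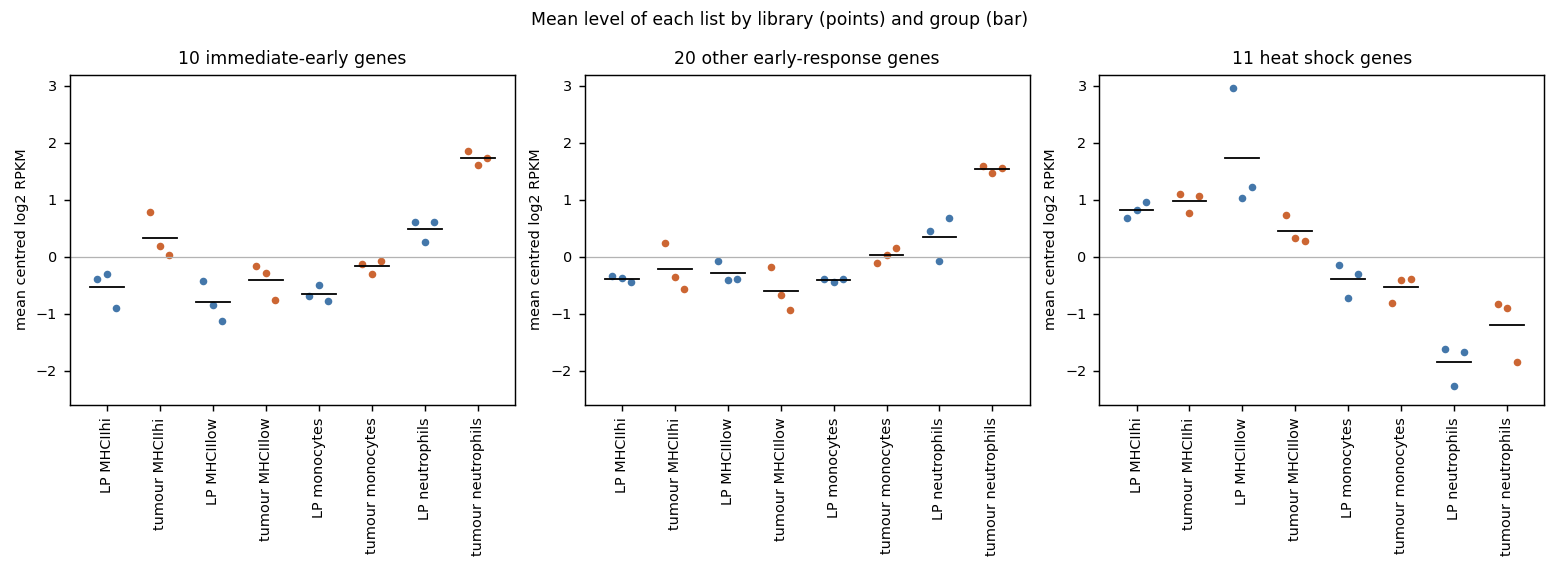
Mean of centred log2 RPKM (vertical axis, each gene less its mean over the 24 libraries) over the 10 immediate-early genes, 20 other early-response genes and 11 heat shock genes, by library (points) and group mean (bar), LP in blue and tumour in orange. In the deposited scaling, tumour neutrophils are highest for the 10 members (1.62 to 1.86, or 1.24 to 1.49 without Egr3), while neutrophils of both tissues are lowest for the heat shock genes. The means were not computed with summed reads, which lower neutrophil and raise macrophage values, so the top rank may change.

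Genes outside the 10 members were ranked by likeness to the mean of the 10 members, Egr3 included, over the 24 libraries, as a description across libraries that share groups and depth. Egr3 weighs most in this mean: its group means spanned 8.92 log2 units, against 3.94 for Egr1, the next widest. The ranking therefore leans towards genes high in neutrophils, and none was made without Egr3. The highest Pearson r belonged to Per1 (0.943), a clock gene, Nfkbid (0.943), Tnfaip3 (0.940), Inpp5k (0.928), Anxa11os (0.928), Nr4a1 (0.925), Sat1 (0.924), Nfkbiz (0.922), Nr4a3 (0.919) and Btg2 (0.918). Nfkbid, Nfkbiz and Tnfaip3 encode regulators of NF-kappaB. Nr4a1 ran from a mean of 5.59 log2 RPKM in LP MHCIIhi macrophages to 12.05 in tumour neutrophils.

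RNA of other cell types moved with tissue in the same libraries. The summed RPKM of 6 B and plasma cell markers was 358 to 1300 in LP neutrophils against 0.66 to 20.1 in tumour neutrophils, and 157 to 575 in LP against 0.19 to 4.68 in tumour monocytes, with Mzb1 at no more than 3 reads in any tumour monocyte or neutrophil library. The sum of 9 epithelial markers was 169 to 342 in tumour neutrophils against 16.4 to 74.3 in their LP counterparts, and 114 to 346 in tumour monocytes against 19.9 to 213 in those of LP. In macrophages it was 9.88 to 73.2 in tumour and 6.81 to 20.1 in LP MHCIIhi cells and 15.7 to 223 in tumour and 24.8 to 29.2 in LP MHCIIlow cells. The sum of 7 fibroblast markers was 7.60 to 62.0 in LP and 0.38 to 1.77 in tumour libraries, and 3 eosinophil markers summed to 21.7 to 42.2 in LP and 20.6 to 30.8 in tumour neutrophils. Their part in the levels of the immediate-early genes was not tested.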

How the data were processed

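RNA-seq of 24 libraries (8 groups of 3) was analysed. The authors made modified SMARTSeq v2 libraries, sequenced 51-base read pairs, used STAR 2.3 for alignment to GRCm38 and featureCounts 1.5 for counts per GENCODE gene, removed genes with few reads, and deposited log2 RPKM values with a prior of 0.25 reads. From that prior, 100.0% of the 415224 values gave whole reads (tolerance 0.001). GENCODE M21 was used for coordinates and overlaps, and RefSeq for promoters.

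Group means were fitted with limma 3.58.1 (R 4.3.3; trended variance, 24 libraries) on genes with a mean of at least 1 RPKM in at least 1 group, 12878 of 17301, with Benjamini-Hochberg adjustment within each comparison over all tested genes and a threshold of 0.05. The method was tested on simulated data. Named non-members were at most the 2 called higher and the 2 called lower with the largest change per list and comparison, and the 10 genes most like the members. The members and lists were chosen with earlier results of these data known.

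Tables used Python 3.11.15 and pandas 2.3.3. Labels give a donor number, so libraries of a tissue with the same number came from one pool. The correlation of their deviations over 29 pairs ran from −0.066 to 0.255 (median 0.017). LP and tumour donors differ, so the tumour against LP comparisons hold no pairs. The study describes the pools as 3 independent experiments, so p-values measure the spread between pools. Alternatives were pseudocounts of 1 and 0.1, no filter, a filter of 5 RPKM, quantile normalization, median centring, array weights, only the libraries compared, voom on recovered reads, donor blocks, and each library left out. Library sizes as summed reads and the random donor block were added after seeing the data.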

Additional observations from a re-analysis of the deposited data

Results flagged for a closer look

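In 4 cases the tumour minus LP difference of a member, in log2 RPKM, differed between populations in limma's test of that difference, at an adjusted p under 0.05 over all genes. For Fosb the difference was 1.06 in MHCIIhi and −0.53 in MHCIIlow macrophages, −1.59 apart (adjusted p = 0.0302), with all 3 tumour libraries above LP in the first and an overlap in the second. For Fosb it was 2.40 in neutrophils and 0.64 in monocytes, 1.76 apart (adjusted p = 0.00425), with no overlap of the tissues in either. For Fos it was 1.06 in neutrophils and 0.06 in monocytes, 1.00 apart (adjusted p = 0.0421), with an overlap in monocytes. For Egr2 it was 1.44 in monocytes and lower by 0.97 in the mean of the macrophages (adjusted p = 0.0422). The Fosb difference between neutrophils and monocytes was called whichever library was left out, and the other 3 were lost without 1 of several libraries.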

How the results depend on the processing

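Of the 10 members, the number called in tumour against LP ran, when each library was left out in turn, from 2 to 5 in MHCIIhi macrophages, 1 to 2 in MHCIIlow macrophages, 1 to 4 in monocytes, 5 to 7 in neutrophils and 7 to 8 over the mean. For MHCIIlow against MHCIIhi cells it ran from 0 to 1 in LP and 0 to 2 in tumours, for macrophages against monocytes from 1 to 4 and 3 to 6, and for neutrophils against monocytes from 6 to 7 and 6 to 8. For the differences of tumour effect it ran from 0 to 2 (MHCIIlow minus MHCIIhi), 0 to 1 (monocytes minus macrophages) and 1 to 2 (neutrophils minus monocytes). The MHCIIlow tumour count was 3 under quantile normalization and 2 with array weights. The LP macrophage subset count was 0 under quantile normalization and with summed reads. The tumour subset count was 2 with either pseudocount, a filter of 5 RPKM, quantile normalization or array weights, 0 with only the libraries compared, and 4 with voom. Neutrophils against monocytes gave 3 in LP with summed reads and 4 in tumours under quantile normalization. The MHCIIlow minus MHCIIhi difference gave 2 with either pseudocount, a filter of 5 RPKM, quantile normalization, summed reads or voom, and 0 with only the libraries compared. The monocyte minus macrophage difference gave 0 without a filter and 2 under quantile normalization, and the neutrophil minus monocyte difference 0 under quantile normalization and 1 with array weights.

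With the donor as a fixed replicate block, the counts were 0 in LP and 3 in tumours for the macrophage subsets, 0 for the monocyte minus macrophage difference and 1 for the neutrophil minus monocyte difference. With a random block the tumour subset count was 2. No blocked value exists for tumour against LP in a fixed block, since no donor gave both tissues.

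Of 2926 values of a member under an alternative, 126 had the opposite sign to the reported value. Of these, 117 were called in neither fit, and the other 9 all fell in neutrophils against monocytes. Under quantile normalization Fos and Jun stood at −0.53 and −0.83 in LP, both called lower (adjusted p = 0.0376 and 0.00376), and Jun, Atf3 and Ier2 at −0.48, −0.022 and −0.25 in tumours. With summed reads Jun stood at −0.81 in LP (called lower, adjusted p = 0.00531) and Jun, Egr2 and Ier2 at −0.38, −0.85 (Egr2 called lower, adjusted p = 0.00161) and −0.21 in tumours, by the construction of that scaling. The cause of the quantile changes was not tested. Egr3 is limited by its few reads, at 0 to 121. Jund, at 25 to 696 reads, varied too widely within groups to compare, and the cause of that spread was not tested.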

Other observations

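Genes upstream and downstream of the immediate-early response were counted as well. Of 16 kinases and factors known to drive these genes, 2 were higher and 4 lower in tumour MHCIIhi macrophages, 3 and 2 in MHCIIlow macrophages, 2 and 0 in monocytes, and 7 and 2 in neutrophils. Of all genes, 8.01% and 11.5%, 11.5% and 11.8%, 4.86% and 4.43%, and 13.1% and 19% were called higher and lower in these comparisons. Rps6ka1, the ERK-activated kinase RSK, was higher in MHCIIhi macrophages by 2.67 ± 0.22, in MHCIIlow macrophages by 2.35 ± 0.22 and in monocytes by 1.12 ± 0.22 (limma, adjusted p = 8.32e-08, 3.21e-07 and 0.00299). In neutrophils Mapk14, which encodes p38 alpha, and Mapk3, which encodes ERK, were higher by 1.60 ± 0.16 and 1.45 ± 0.27. The 4 lower calls in MHCIIhi macrophages became 1 without LP library III, IV or V and 2 without tumour library VII. The 2 lower calls in MHCIIlow macrophages became 0 without LP library II or tumour library I and 1 without LP library III or tumour library V. In neutrophils 4 were higher without LP library V or tumour library I or V, 1 was lower without LP library IV or tumour library I or V, and with sizes set to the summed reads 3 were higher and 4 lower.

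Of 14 feedback inhibitors, 1 was higher and 4 lower in tumour MHCIIhi macrophages, 0 and 5 in MHCIIlow macrophages, 0 and 0 in monocytes, and 5 and 2 in neutrophils. Of the counts of 0, by limma at an unadjusted p under 0.05 1 gene was higher in MHCIIlow macrophages, and 1 higher and 1 lower in monocytes. In monocytes voom called 1 higher, and the 6 libraries alone 1 lower. The higher call in MHCIIhi macrophages was lost without LP library IV or tumour library VII, and the 5 in neutrophils became 3 without LP library III and 2 with summed reads. Spred1, an inhibitor of Ras signalling, was lower by −1.51 ± 0.41 in MHCIIhi macrophages, −2.25 ± 0.41 in MHCIIlow macrophages and −2.12 ± 0.41 in neutrophils. In neutrophils Tnfaip3, an inhibitor of NF-kappaB, was higher by 1.76 ± 0.26 and Dusp1, a MAP kinase phosphatase, by 1.36 ± 0.20, while Dusp6, a phosphatase of ERK, was lower by −1.65 ± 0.21.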
